A study of Mus musculus with 43 samples.

Results

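The RNAs described here are 8 named long noncoding transcripts of the mouse hypothalamus: Malat1, Neat1, Miat, Rian, Mirg, Snhg11, Gas5 and 5330429C05Rik. They were picked by symbol, through their Ensembl identifiers, from 10127 genes in a table of read counts scaled to the size of each library (CPM), of which 1143 carry a long noncoding type in GENCODE M21. 7 of the 8 carry such a type, whereas Snhg11 is listed there as protein coding and is included for its role as a small nucleolar RNA (snoRNA) host. 5330429C05Rik was picked because it was higher in the paraventricular nucleus of fasted mice, so its values are given as a description and carry no test.

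RNA was laser captured from the arcuate nucleus (ARC), dorsomedial hypothalamus (DMH), paraventricular nucleus (PVN) and ventromedial hypothalamus (VMH) of adult male mice of the strain labelled C57/BL6. Every mouse, fed and fasted alike, carried the paternal Snord116 deletion, which removes a cluster of imprinted snoRNA genes lost in Prader-Willi syndrome, so no group here measures the deletion itself. Mice were either fed ad libitum or fasted for 24 h. There were 5 fed and 5 fasted libraries in PVN, 5 and 6 in VMH, 5 and 4 in ARC and 6 and 5 in DMH, which makes 41 libraries of 12 mice (6 per state). Within a nucleus each library came from a different mouse, and libraries from different nuclei shared mice. Libraries are named by nucleus and mouse number, so that ARC-86 and PVN-86 are from 1 animal.

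Long noncoding RNAs act as RNA and are not read into protein. Malat1 accumulates in nuclear speckles beside splicing factors, Neat1 is the scaffold around which paraspeckles assemble, and Miat (also called Gomafu) forms nuclear foci in neurons. Rian and Mirg are made from the maternal chromosome of the imprinted Dlk1-Dio3 domain and carry snoRNA and microRNA genes. Snhg11 and Gas5 are spliced hosts whose introns release snoRNAs, and the Gas5 RNA is also known to bind the DNA-binding domain of the glucocorticoid receptor and to respond to nutrient and growth state through its turnover. 5330429C05Rik is a short transcript with no role known to be stated here.

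Sequence features of these RNAs that bear on their names and roles are shown first. Miat is known for repeats of TACTAAC, the consensus branch point of introns, through which it binds splicing factor SF1. A search of its GENCODE M21 transcript of 9163 bases (minus strand, GRCm38) for these letters found 6 copies, all in exon 7 of 7. They lie in 3 stretches, at chr5:112217434-112217460, chr5:112217309-112217360 and chr5:112216752-112216812, shown in that order with the repeat in capitals.
Miat stretch 1: gtgattaaccTACTAACcaacccaggg
Miat stretch 2: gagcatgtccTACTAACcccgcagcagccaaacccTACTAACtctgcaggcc
Miat stretch 3: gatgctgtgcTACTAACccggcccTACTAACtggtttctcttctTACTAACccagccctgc
Of 55450 genes, 4 (0.00721%), Miat among them, had any transcript with at least as many copies. At least 1 copy was found in 5.63% of genes, a share that was 22.3% among genes with a transcript of 5000 bases or more. In their longest transcripts Neat1 had 1 copy and the other 6 RNAs had 0.

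Rian and Mirg are precursors of microRNAs, short RNAs that pair with messages chiefly through bases 2 to 8, the seed. RefSeq (GRCm38.p6) places 3 hairpins with 6 mature microRNAs in Rian and 14 hairpins with 26 mature microRNAs in Mirg. The 26 of Mirg carry 25 different seeds, because miR-453 (chr12:109735669-109735692) and miR-496a-5p (chr12:109739132-109739152) share GGUUGCC, a seed that no other of the 1679 mouse mature microRNAs in the RefSeq table holds. This pair is shown for the shared seed, and miR-134-5p (chr12:109734145-109734166), miR-410-3p (chr12:109743764-109743784) and, from Rian, miR-370-3p (chr12:109618305-109618326) are shown as brain microRNAs of the cluster; the seed is in capitals and all lie on the plus strand.
miR-453: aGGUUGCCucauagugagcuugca
miR-496a-5p: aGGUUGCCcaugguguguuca
miR-134-5p: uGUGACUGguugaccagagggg
miR-410-3p: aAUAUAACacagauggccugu
miR-370-3p: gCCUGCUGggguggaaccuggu
Mature microRNAs themselves were not measured in these libraries.

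Promoter windows of 300 bases, from 250 before to 50 after the start, were found in RefSeq (GRCm38.p6) for 7 of the 8 RNAs, with an entry missing for Neat1. They were searched on both strands for TGACGTCA and its shorter form TGACG (cyclic AMP response element), AGAACA and the full palindrome of which it is an arm (glucocorticoid receptor), GTAAACA (forkhead factors) and the TATA box TATAAA. The windows of Gas5 and 5330429C05Rik are shown, the first because it held the only full TGACGTCA and the second because this RNA was picked for its level in fasted mice. In the second annotated start of Gas5 (chr1:161034916-161035215, plus strand) TGACGTCA, in capitals, begins 46 bases before the start, and the start itself is a C followed by further pyrimidines, the form of start known from growth-regulated terminal oligopyrimidine RNAs.
Gas5 promoter: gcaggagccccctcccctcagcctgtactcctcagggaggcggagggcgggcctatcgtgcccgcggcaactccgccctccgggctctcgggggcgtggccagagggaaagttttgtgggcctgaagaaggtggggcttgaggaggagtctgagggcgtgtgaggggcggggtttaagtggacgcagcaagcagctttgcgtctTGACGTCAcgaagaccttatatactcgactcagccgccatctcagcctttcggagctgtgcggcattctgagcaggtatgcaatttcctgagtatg
TGACGTCA occurred in 1.79% of 32851 promoter windows, and a start at C followed by at least 4 further pyrimidines in 2.51%. The first annotated start of Gas5 (chr1:161034351-161034650) had neither. In 5330429C05Rik (chr13:54912985-54913284, plus strand) AGAACA occurred at 172 and 167 bases before the start, and the overlapping copies are in capitals.
5330429C05Rik promoter: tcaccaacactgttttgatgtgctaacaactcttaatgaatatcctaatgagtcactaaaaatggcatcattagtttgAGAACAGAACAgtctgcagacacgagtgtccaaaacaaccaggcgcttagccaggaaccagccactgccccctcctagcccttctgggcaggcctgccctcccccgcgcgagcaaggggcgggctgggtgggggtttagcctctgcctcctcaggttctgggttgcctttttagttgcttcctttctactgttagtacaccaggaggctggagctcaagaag
AGAACA is common, being present in 19% of windows, and also occurred once in Rian and at 2 positions in Mirg. The window of Mirg (chr12:109734731-109735030) lies inside the annotated gene (chr12:109729764-109749460) and covers miR-668-5p and miR-485-3p. It is thus not at the start of that gene. TGACG, found in 20.8% of windows, occurred at 3 positions in Malat1. The windows of Miat and Snhg11 held none of the motifs searched, but Miat also starts at a C within a run of 6 pyrimidines, against 5 in the second start of Gas5.

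The captures carried the markers of their nuclei. The summed CPM of ARC markers such as Npy was at least 323 in every ARC library and at most 41.5 in any other. The sums of genes listed for DMH (Npvf, Hcrt, Pmch), PVN (Avp, Crh) and VMH (Fezf1, Bdnf) set their libraries apart in the same way. By mean, the DMH sum came mostly from Pmch (277 CPM) and Hcrt (112 CPM), with 95.2 CPM of Npvf. Whether tissue beside DMH gave Pmch and Hcrt was not tested. In VMH Fezf1 had 219 CPM against at most 8.71 elsewhere, whereas Bdnf had 33.3 against 24.7 in PVN. Library depth, estimated from the size of 1 read in the low values, ran from 1.94 to 8.23 M reads with a median of 4.10 M, so that 3 reads correspond to 0.364 to 1.55 CPM. Oligodendrocyte genes (7 of 10 listed were measured) summed to 1129 to 1780 CPM in VMH, 455 to 1587 in DMH, 246 to 780 in ARC and 352 to 627 in PVN, and endothelial genes (6 of 9 measured) reached 185 to 319 in PVN against at most 148 elsewhere. The neuron list was measured by 2 of 9 genes, whose sum was 436 to 550 CPM in ARC and 463 to 544 in PVN against 572 to 822 in DMH and 672 to 868 in VMH, so that ARC and PVN lay apart from DMH and VMH. The 2 did not run alike, since Syt1 followed this split while Tubb3 had its highest mean in PVN. Astrocyte genes (3 of 8 measured) summed to 84.1 to 147 CPM in ARC and 126 to 331 elsewhere, ependymal and tanycyte genes (2 of 6) to 22.3 to 67.8 in ARC and at most 23.5 elsewhere, and microglial genes (6 of 8) to 52.4 to 177 with all nuclei overlapping. Their part in the differences between nuclei below was not tested.

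The 8 RNAs differed widely in level. Dividing CPM by the kilobases of all annotated exons, Malat1 reached 1576 ± 238 CPM per kb (SD, n = 41 libraries), Snhg11 417 ± 53.3, Gas5 135 ± 25.1 and Rian 42.7 ± 8.19. Miat followed at 19.01 ± 3.27 CPM per kb, Mirg at 7.35 ± 1.91, Neat1 at 2.31 ± 0.994 and 5330429C05Rik at 2.16 ± 4.12. On this scale the RNAs from Malat1 to Neat1 were each apart from their neighbours among these by more than their SDs between libraries. Those SDs leave out the choice of length. The annotated exons of Mirg cover 7292 bases and its longest transcript 3822, so its distance from Miat depends on that choice. The mean of 5330429C05Rik is carried by the fasted PVN libraries by which it was picked, so its level is not compared with Neat1. It was 11.9 CPM per kb there and at most 1.64 in any other group of nucleus and state. By CPM alone Malat1 ranked 2 and Snhg11 7 of 10127 genes, whereas 5330429C05Rik ranked 9997.

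**Figure D1:**
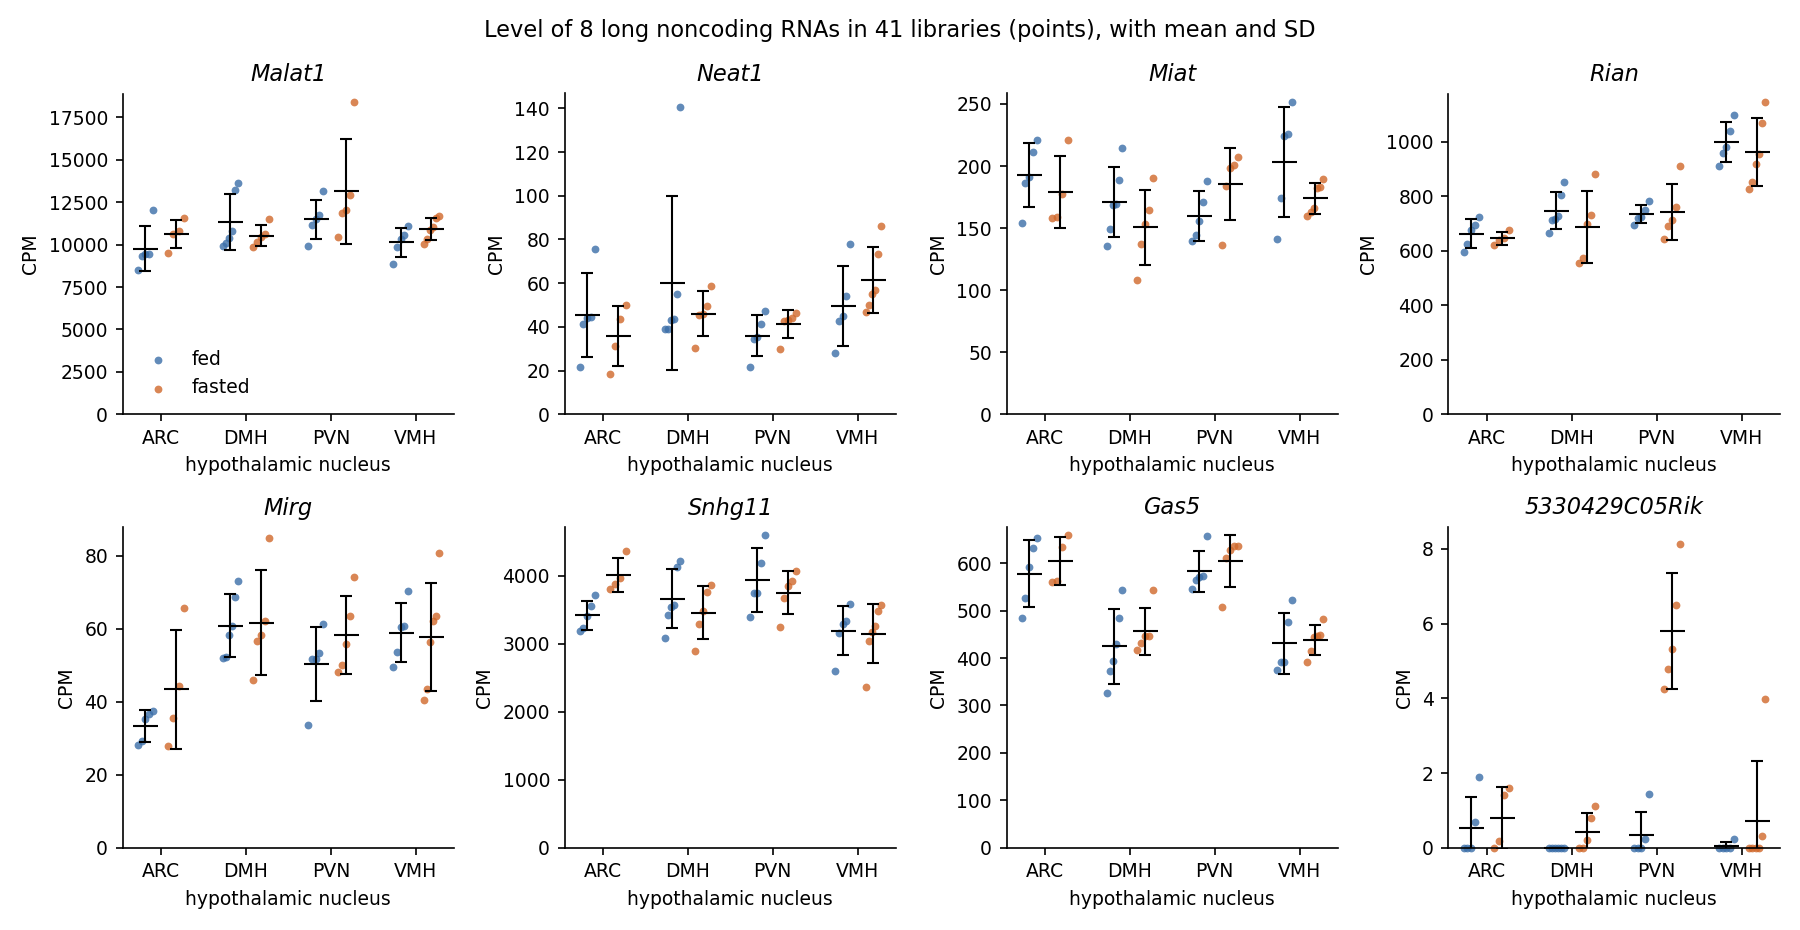
Level of each of the 8 RNAs (CPM from 0; each panel has its own range) in the 4 hypothalamic nuclei. Each point is 1 library, fed or fasted by colour, and bars are the mean and SD of each state; Rian was highest in VMH (mean 978 CPM), Mirg lowest in ARC (37.8 CPM), and Gas5 higher in ARC (589 CPM) and PVN (593 CPM) than in DMH (439 CPM) and VMH (435 CPM).

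The question of where each RNA was most abundant was asked with the mouse kept as a block, since the nuclei came from the same animals. Of the 7 RNAs that could be tested, 6 differed between nuclei at an adjusted p below 0.1 (limma, F-test, Benjamini-Hochberg over all genes), against 43.3% of all 10121 genes. A difference in these captures can come from fewer cells that make an RNA or from less RNA per cell, which cannot be told apart here. Nucleus by nucleus, 2 of the 7 differed between ARC and DMH (18% of all genes), 3 between ARC and PVN (17.3%) and 5 between ARC and VMH (30.2%). A further 2 differed between DMH and PVN (18.3%), 2 between DMH and VMH (22.5%) and 5 between PVN and VMH (32%).

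Rian, the snoRNA-rich transcript of the Dlk1-Dio3 domain (chr12:109603940-109661716, plus strand), had the clearest pattern and was most abundant in VMH. The 11 VMH libraries ran from 826 through a median of 958 to 1147 CPM, against 597 through 648 to 724 in the 9 ARC libraries. The 10 PVN libraries ran from 642 through 722 to 910 and the 11 DMH libraries from 555 through 718 to 881. Every VMH library exceeded every ARC library, while PVN-86, DMH-86 and DMH-125 exceeded the lowest VMH library, VMH-86. The log2 difference of VMH over ARC was 0.61 ± 0.06 (SE; limma adjusted p = 3.40e-10), higher in 9 of 9 mice with both. Over DMH it was 0.46 ± 0.06 (adjusted p = 1.93e-07, 9 of 10 mice), and over PVN 0.41 ± 0.06 (adjusted p = 9.87e-07, 9 of 10 mice). Rian was also lower in ARC than in PVN, by 0.20 ± 0.06 (adjusted p = 0.0303, 9 of 9 mice), a call not reached in the fed libraries alone, where the difference was 0.15.

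Mirg, the microRNA host 68048 bases downstream of Rian on the same strand (chr12:109729764-109749460), followed another order and was least abundant in ARC. In ARC it ran from 27.9 through a median of 35.5 to 65.7 CPM, against 46.0 through 58.3 to 84.9 in DMH. In VMH the values were 40.5 through 60.4 to 80.8 and in PVN 33.6 through 52.5 to 74.0. The highest ARC value was that of fasted ARC-86, whose mouse also had the highest DMH and VMH values, and the ranges of the nuclei overlapped. Mirg was lower in ARC than in DMH by 0.72 ± 0.12 (limma adjusted p = 3.09e-05, 9 of 9 mice), than in VMH by 0.67 ± 0.12 (adjusted p = 4.22e-05, 9 of 9 mice) and than in PVN by 0.56 ± 0.12 (adjusted p = 0.000841, 8 of 9 mice). DMH, PVN and VMH did not differ from each other past the threshold. The ratio of Rian to Mirg in CPM was accordingly 18.4 ± 3.86 (SD, n = 9) in ARC and 17.4 ± 3.82 (n = 11) in VMH, against 11.97 ± 2.04 (n = 11) in DMH and 14.1 ± 3.14 (n = 10) in PVN.

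**Figure D2:**
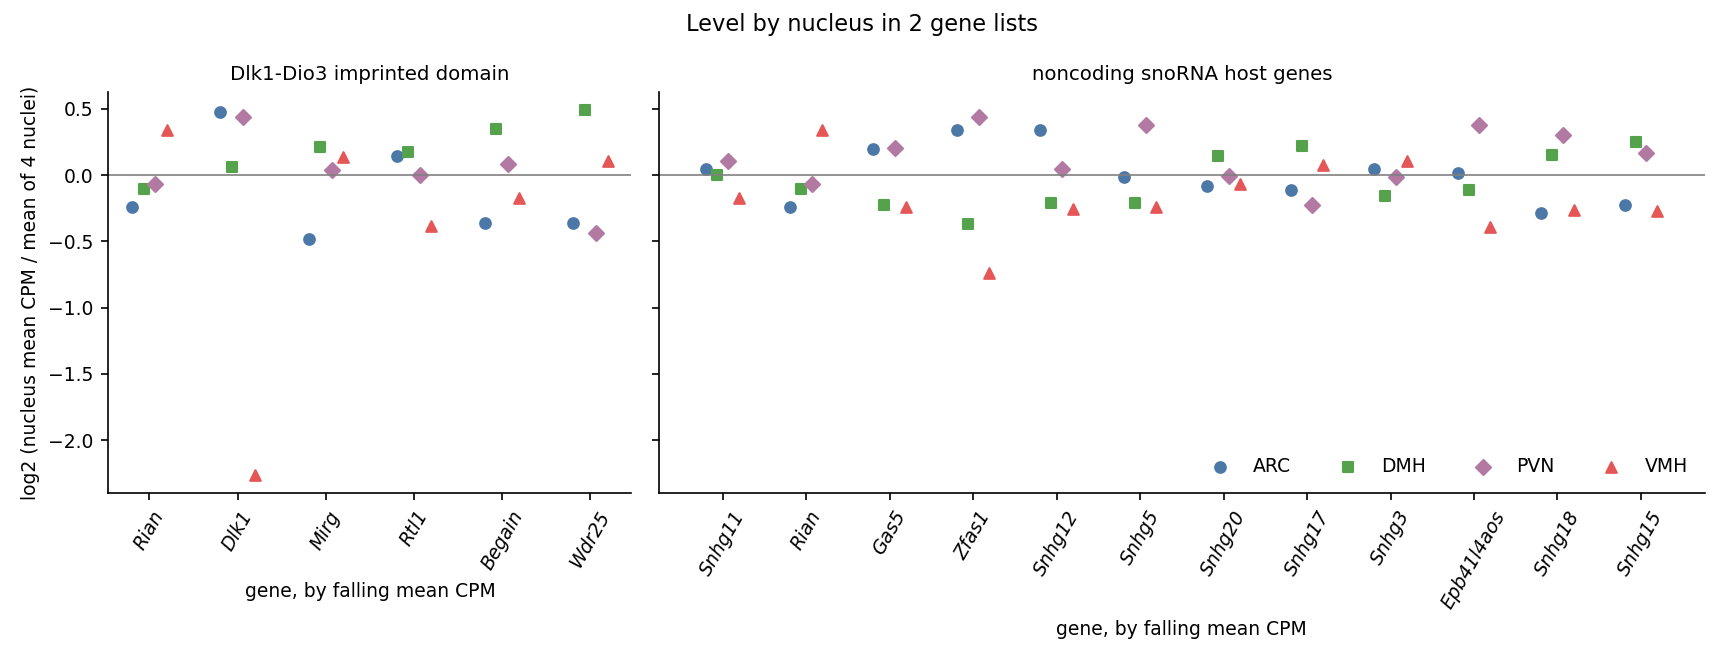
Log2 of the mean CPM in each nucleus over the mean of the 4 nuclei, by marker, for the measured genes of the Dlk1-Dio3 domain and for the measured snoRNA hosts. In the domain Dlk1 was lowest in VMH where Rian was highest, and among the hosts Zfas1 shared with Gas5 the higher level in ARC and PVN.

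Of the 8 listed genes of the Dlk1-Dio3 domain 6 were measured, and all 6 differed between nuclei, where 43.3% of all genes did: Rian, Mirg, Dlk1, Rtl1, Begain and Wdr25. The calls of the first 3 held in every alternative and those of the other 3 did not. Dlk1, a paternally expressed transmembrane ligand of the domain, ran opposite to Rian in VMH, with a mean of 108 CPM there against 721 in ARC, 539 in DMH and 699 in PVN (limma adjusted p = 4.28e-21 between nuclei). Rtl1, whose gene ends 3610 bases before Rian on the opposite strand, differed at a limma adjusted p of 0.0587, Begain at 0.0267 and Wdr25 at 0.0594. The Rtl1 call was lost without the mouse of VMH-100 (adjusted p = 0.207) or VMH-308 (0.136) and in fed libraries alone (0.279), where that of Begain was lost too (0.183). The call of Wdr25 was lost without the mouse of VMH-111 (0.153), VMH-125 (0.229), VMH-305 (0.179) or VMH-313 (0.126). Whether reads were counted by strand is not given in the sources used here.

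Gas5 (chr1:161034422-161038539, plus strand) was higher in ARC and PVN than in DMH and VMH. The values ran from 485 through a median of 591 to 659 CPM in ARC and from 508 through 593 to 656 in PVN, but from 326 through 431 to 543 in DMH and from 374 through 444 to 522 in VMH. The ranges overlapped only between the lowest ARC and PVN libraries and the highest DMH and VMH libraries. ARC exceeded DMH by 0.39 ± 0.07 (limma adjusted p = 2.08e-05) and VMH by 0.43 ± 0.07 (adjusted p = 1.82e-06), each in 9 of 9 mice. PVN exceeded DMH by 0.42 ± 0.06 (adjusted p = 3.03e-06) and VMH by 0.45 ± 0.06 (adjusted p = 2.48e-07), each in 10 of 10 mice. Neither ARC and PVN (log2 difference -0.03, adjusted p = 0.866) nor DMH and VMH (0.03, adjusted p = 0.796) differed past the threshold. Gas5 overlaps the antisense gene Zbtb37, which was listed at 13.5 CPM.

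Snhg11 (chr2:158375638-158386145, plus strand), a neuronal snoRNA host, was lowest in VMH. VMH libraries ran from 2359 through a median of 3268 to 3582 CPM and PVN libraries from 3249 through 3797 to 4605. Those of ARC ran from 3192 through 3710 to 4370 and those of DMH from 2889 through 3541 to 4222. The ranges overlapped, and the lowest libraries of 3 nuclei, VMH-101, PVN-101 and DMH-101, were of the same mouse. VMH was below PVN by 0.29 ± 0.05 (limma adjusted p = 2.13e-05, 10 of 10 mice), below ARC by 0.19 ± 0.05 (adjusted p = 0.00602, 7 of 9 mice) and below DMH by 0.18 ± 0.05 (adjusted p = 0.0102, 9 of 10 mice). The ARC to VMH call was not reached in fed libraries alone, where the difference was 0.10.

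Of 22 listed noncoding snoRNA hosts 12 were measured, and 6 differed between nuclei, close to the 43.3% of all genes: Gas5, Snhg11, Rian, Zfas1, Snhg12 and Snhg5. Zfas1 had means of 58.3 CPM in ARC, 62.5 in PVN, 35.7 in DMH and 27.6 in VMH (limma adjusted p = 3.32e-08), which is the order of Gas5 with ARC and PVN high. Snhg12 (adjusted p = 0.0275) was highest in ARC at 53.9 CPM and Snhg5 (adjusted p = 0.0240) in PVN at 29.4 CPM, and neither call was reached in fed libraries alone (0.205 and 0.271).

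Malat1 (chr19:5795690-5802672, minus strand) was highest in PVN. PVN libraries ran from 9946 through a median of 11794 to 18408 CPM and VMH libraries from 8858 through 10565 to 11664. Those of ARC ran from 8515 through 9534 to 12019 and those of DMH from 9841 through 10464 to 13613. The value of 18408 was fasted PVN-86, and the remaining PVN libraries lay within the span of the other nuclei. PVN exceeded ARC by 0.28 ± 0.05 (limma adjusted p = 0.000126, 8 of 9 mice), VMH by 0.20 ± 0.05 (adjusted p = 0.00232, 10 of 10 mice) and DMH by 0.19 ± 0.05 (adjusted p = 0.00866, 8 of 10 mice). The difference from DMH was 0.08 in the fed libraries alone and was not called there.

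Neat1, which lies 22036 bases from Malat1 on the same strand (chr19:5824708-5845478), varied more from library to library than Malat1. Its coefficient of variation was 43.1% over the 41 libraries against 15.1% for Malat1. In VMH it ran from 28.2 through a median of 54.3 to 86.1 CPM and in PVN from 21.7 through 41.9 to 47.5. The ARC libraries ran from 18.5 through 43.5 to 75.7 and the DMH libraries from 30.2 through 45.3 to 141. All ranges overlapped. Neat1 passed the threshold between nuclei (limma adjusted p = 0.0509), and that call was lost without the mouse of VMH-100 (adjusted p = 0.124), of VMH-125 (0.147) or of VMH-305 (0.104) and in fed libraries alone (0.521). VMH exceeded PVN by 0.52 ± 0.17 (adjusted p = 0.0210, 9 of 10 mice) and ARC by 0.49 ± 0.18 (adjusted p = 0.0423, 7 of 9 mice). In fed libraries alone neither was called, and they stood at 0.42 and 0.16. The difference from ARC was 0.28 and not called without the mouse of ARC-86.

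Miat (chr5:112213228-112229395, minus strand) was the RNA that did not pass between nuclei (limma adjusted p = 0.273). It overlaps the antisense gene Gm26953, whose reads cannot be told apart from its own where strand is not used. It ran from 141 through a median of 182 to 251 CPM in VMH and from 154 through 186 to 221 in ARC. The values in PVN were 136 through 178 to 207 and in DMH 108 through 164 to 215.

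Proteins of the nuclear bodies in which Neat1 and Malat1 lie were read beside them. Among 11 measured paraspeckle proteins 2 differed between nuclei, where 43.3% of all genes did: Nono, a core protein of the body that Neat1 builds, and Matr3, the most abundant of the 11. Nono had its highest mean in ARC, at 247 CPM, and its lowest in VMH, at 156 (limma adjusted p = 5.26e-06). Matr3 ranged from 302 CPM in PVN to 351 in VMH (adjusted p = 0.00780), a call not reached in fed libraries alone (0.268). Among 7 measured speckle and splicing factors 5 differed: Srrm2, Qk, Srrm1, Luc7l2 and Srsf3. Srrm2, the speckle scaffold and the most abundant of them, ran from 1041 CPM in ARC to 1199 in DMH (adjusted p = 0.0354), and the call was lost without the mouse of PVN-111 (0.153) or PVN-313 (0.102). Qk had 278 CPM in ARC against 434 in DMH (adjusted p = 5.44e-08) and Srsf3 133 CPM in VMH against 191 in ARC (adjusted p = 2.56e-05). Srrm1 stayed past the threshold in 8 of 17 alternatives, and Luc7l2 in 15, being lost in fed libraries alone (0.307) and without the mouse of PVN-305 (0.117).

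5330429C05Rik (chr13:54913235-54914479, plus strand, 487 exon bases) had a mean of 3.06 CPM in PVN, 0.643 in ARC, 0.410 in VMH and 0.193 in DMH, and fasted PVN libraries, by which it was picked, are part of the first of these. It was listed at 0 in 23 of the 41 libraries.

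**Figure D3:**
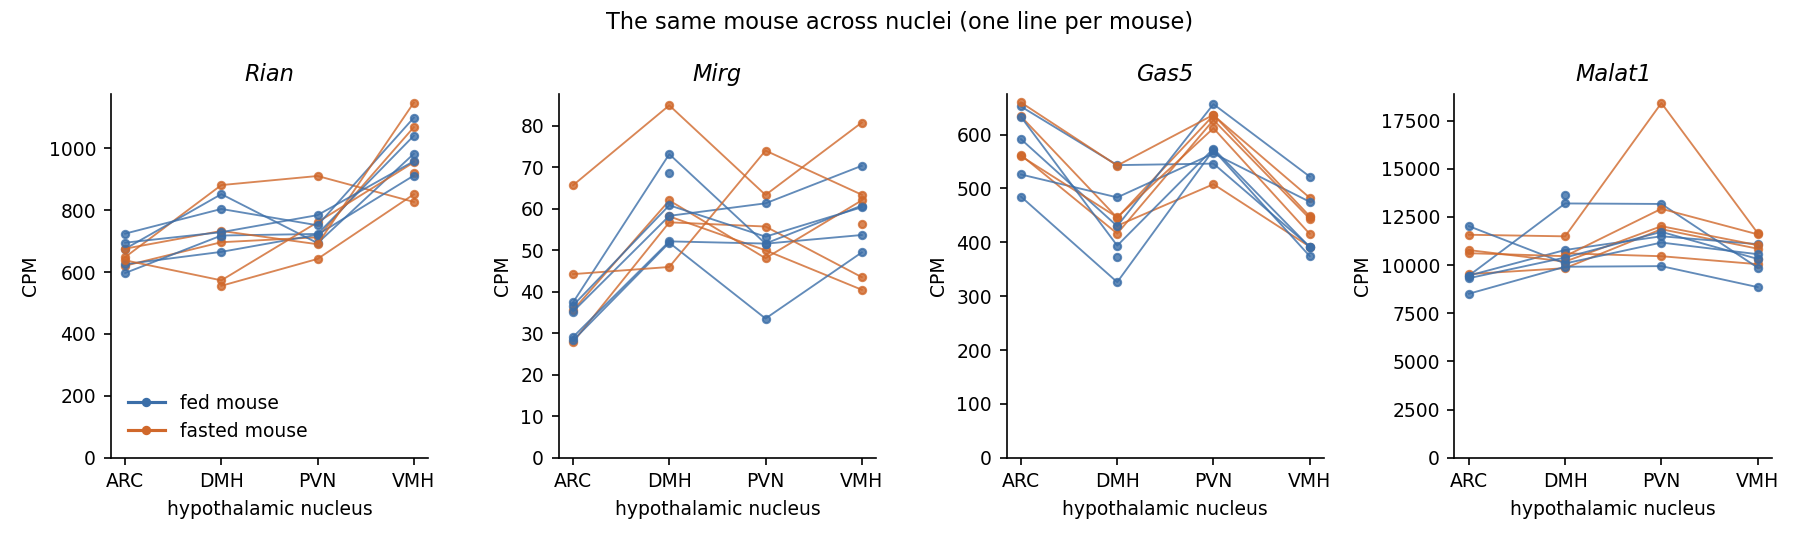
Level in each nucleus joined by mouse for Rian, Mirg, Gas5 and Malat1 (CPM from 0). Each line is 1 mouse, fed or fasted by colour, and a lone point is a mouse with 1 library; Rian was higher in VMH than ARC in 9 of 9 mice, and Gas5 and Malat1 were higher in PVN than VMH in 10 of 10.

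Whether fasting changed these RNAs was asked within each nucleus, with batch as a covariate. None of the 7 tested RNAs passed the threshold in any nucleus. Few genes of any kind did, namely 0.367% of all genes in PVN, 0.176% in ARC, 0.0208% in VMH and 0.0103% in DMH. At an unadjusted p below 0.05 stood 3 of the 28 values, Snhg11 in ARC and Malat1 in PVN and VMH, each with a higher mean in fasted mice. Among all genes 8.1% in ARC, 9.97% in PVN and 6.98% in VMH stood below it, so such a count is close to the background. 5330429C05Rik was below the CPM filter in ARC, DMH and VMH.

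**Figure D4:**
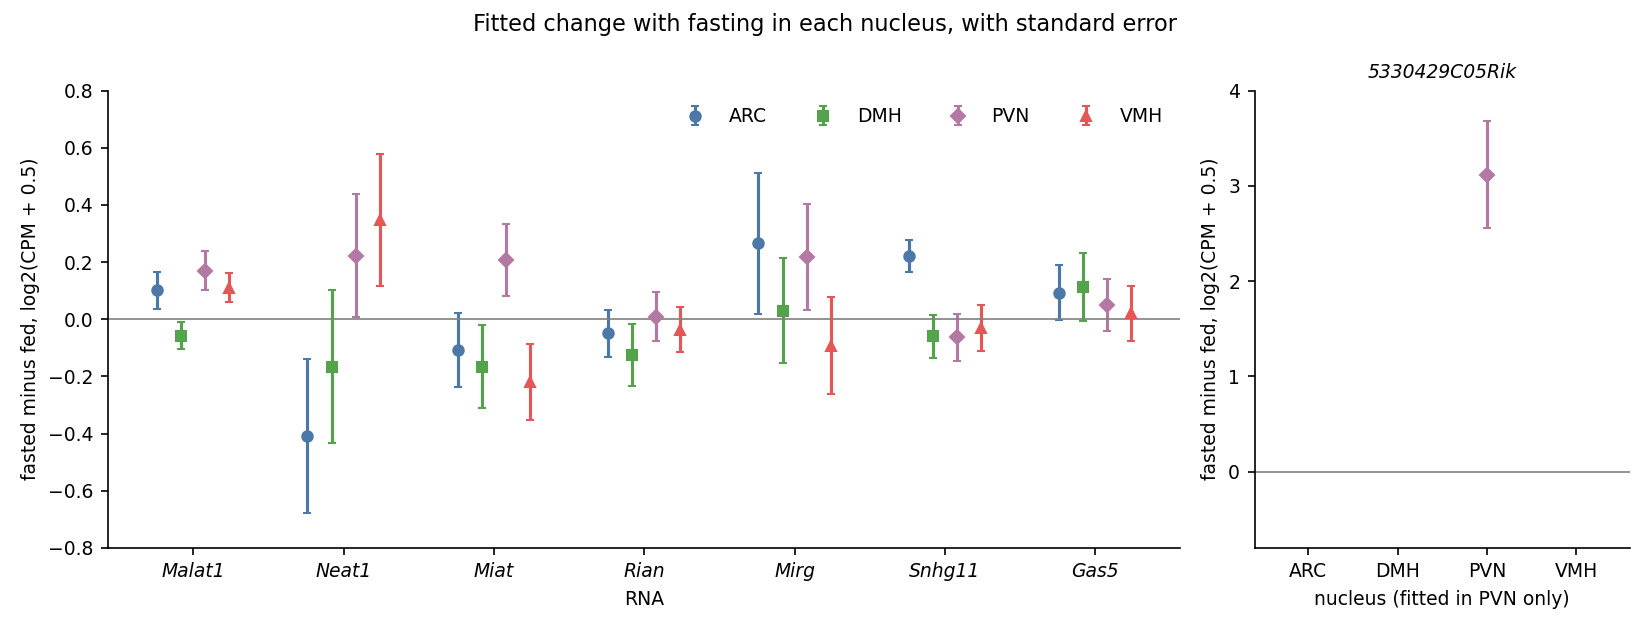
Fasting change of the 7 tested RNAs in each nucleus and of 5330429C05Rik in PVN, as log2 of fasted over fed on the log2(CPM + 0.5) scale with SE. 5330429C05Rik was fitted in PVN only, so its positions for the other nuclei are empty. Marker and colour give the nucleus; the 28 changes of the 7 tested RNAs lie between Neat1 in ARC (-0.41) and Neat1 in VMH (0.35), and 5330429C05Rik in PVN, in the contrast by which it was picked, lies at 3.12 on its own axis.

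Snhg11 in ARC was the tested value whose groups did not overlap. The 5 fed ARC libraries had 3192, 3225, 3404, 3554 and 3710 CPM, and the 4 fasted libraries had 3812, 3875, 3963 and 4370 CPM. Every fasted library was thus above every fed one, which was the case for 1.12% of all genes tested in ARC. The log2 change was 0.22 ± 0.06 (limma adjusted p = 0.254, and 0.179 to 0.790 over the alternatives), and it was 0.24, 0.27 and 0.18 within batches 1, 2 and 3. Elsewhere the change was -0.03 ± 0.08 in VMH and -0.06 ± 0.08 in both PVN and DMH, with overlapping groups, and the difference in change between nuclei did not pass (adjusted p = 0.859).

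For Malat1 the fed and fasted libraries overlapped in every nucleus. In PVN the fed libraries had 9946, 11169, 11495, 11725 and 13172 CPM and the fasted libraries 10460, 11862, 12019, 12922 and 18408. The log2 change was 0.17 ± 0.07 (limma adjusted p = 0.418), and it was 0.48, 0.06 and 0.12 within the 3 batches. Without fasted PVN-86, the library at 18408, or without fed PVN-111, its only partner in batch 1, it was 0.09. In VMH the fed libraries had 8858, 9870, 10320, 10565 and 11087 CPM, and the 6 fasted libraries ran from 10048 through a median of 10942 to 11664. The change there was 0.11 ± 0.05 (adjusted p = 0.712), in ARC 0.10 ± 0.07 (adjusted p = 0.695) and in DMH -0.06 ± 0.05 (adjusted p = 0.871).

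The changes of Neat1 had wide errors and shifted with single libraries. They were 0.35 ± 0.23 in VMH, 0.22 ± 0.22 in PVN, -0.17 ± 0.27 in DMH and -0.41 ± 0.27 in ARC, with limma adjusted p from 0.695 to 0.945. In DMH the fed libraries ran from 38.9 through a median of 43.2 to 141 CPM and the fasted libraries had 30.2, 45.3, 45.9, 49.5 and 58.7. The DMH change was 0.04 without fed DMH-92, the library at 141, and 0.36 with the depth covariate. With 1 library left out in turn the change ran from 0.16 (without fed VMH-127) to 0.58 (without fed VMH-125) in VMH. It ran from 0.026 (without fasted PVN-86 or fed PVN-111) to 0.35 (without fasted PVN-100) in PVN, and from -0.62 (without fasted ARC-100) to -0.16 (without fasted ARC-86 or fed ARC-111) in ARC. For Miat the values were 0.21 ± 0.13 in PVN, -0.11 ± 0.13 in ARC, -0.17 ± 0.15 in DMH and -0.22 ± 0.13 in VMH, none past the threshold.

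Neither Rian nor Mirg passed the threshold in any nucleus. The log2 difference of fasted over fed for Rian was 0.01 ± 0.09 in PVN, -0.04 ± 0.08 in VMH, -0.05 ± 0.08 in ARC and -0.12 ± 0.11 in DMH. That of Mirg was 0.22 ± 0.19, -0.09 ± 0.17, 0.26 ± 0.25 and 0.03 ± 0.18 in the same order. With the depth covariate the Rian change in DMH was 0.15. In ARC the fed Mirg values were 28.3, 29.1, 35.3, 36.7 and 37.4 CPM and the fasted values 27.9, 35.5, 44.3 and 65.7, so that 2 fasted libraries lay above all fed ones and 1 below. For Gas5 it was 0.05 ± 0.09 in PVN, 0.02 ± 0.10 in VMH, 0.09 ± 0.10 in ARC and 0.11 ± 0.12 in DMH, with fed and fasted overlapping in each.

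**Figure D5:**
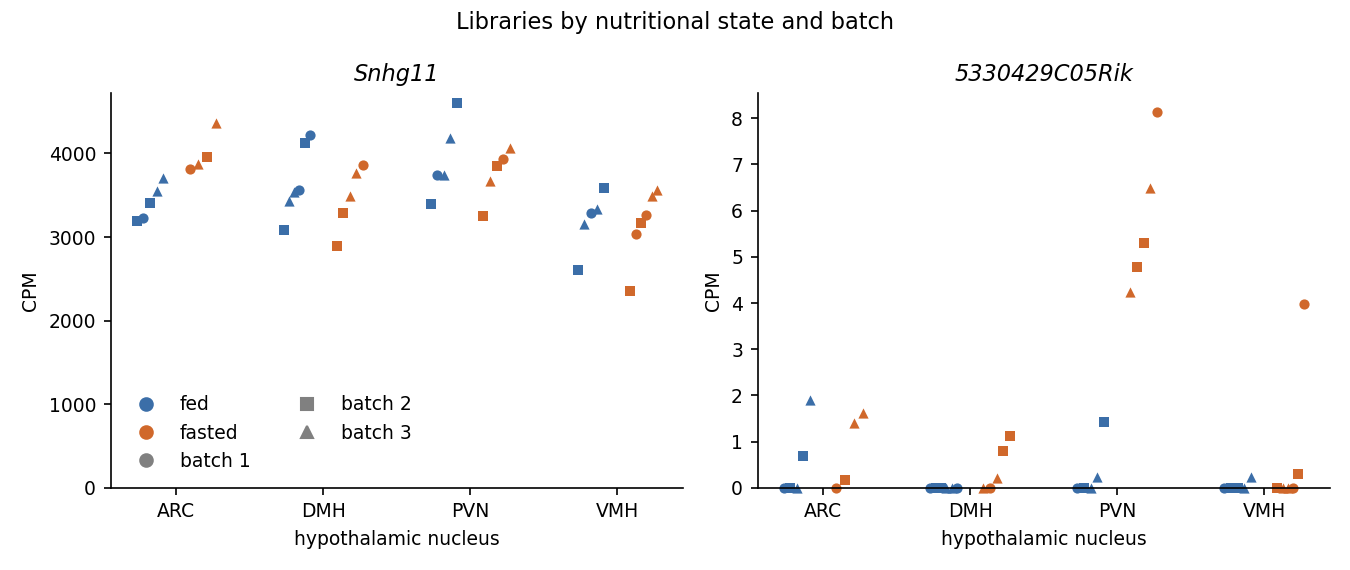
Fed and fasted libraries, marked by batch, for Snhg11 and 5330429C05Rik in each nucleus (CPM from 0). Each point is 1 library, coloured by state with the batch as its shape; fed and fasted do not overlap for Snhg11 in ARC (3192 to 3710 against 3812 to 4370 CPM) and for 5330429C05Rik in PVN (0 to 1.43 against 4.24 to 8.13 CPM, the contrast by which it was picked).

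5330429C05Rik in PVN is described as it was picked. The fed PVN libraries had 0, 0, 0, 0.238 and 1.43 CPM, the last 2 of these being 1 and 6 reads, with a mean of 0.333 ± 0.621 (SD, n = 5). The fasted libraries had 4.24, 4.78, 5.31, 6.49 and 8.13 CPM, or 21, 22, 20, 17 and 43 reads, with a mean of 5.79 ± 1.55 (SD, n = 5). The log2 change was 3.12 ± 0.56 and rests on the pseudocount, being 4.70 with 0.1 and 1.75 with 2 in place of 0.5. It was 4.11, 2.50 and 3.24 within the 3 batches. In PVN 35 of 9529 genes (0.367%) passed the threshold, and 0.703% had every fasted library above every fed one.

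Outside PVN, which the rule did not use, 5330429C05Rik was near or under the level of 3 reads in most libraries of both states. In ARC the fed libraries had 0, 0, 0, 0.684 and 1.91 CPM and the fasted 0, 0.179, 1.41 and 1.61, so the groups overlapped. In DMH all 6 fed libraries were at 0 and the fasted libraries had 0, 0, 0.216, 0.790 and 1.11. In VMH 4 of 5 fed libraries were at 0 and 1 had 0.226, while 4 of 6 fasted libraries were at 0 and the others had 0.305 and 3.98. That value, of VMH-86, came from the mouse with the highest PVN value and amounts to 13 reads. Fewer than the smaller group's number of libraries reached 1 CPM in each of these nuclei, so no test was made.

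Taking the 4 nuclei in one model with the mouse as a correlated block, none of the 7 RNAs passed, where 3.12% of all genes did. The block had little effect (estimated correlation -0.0036), so libraries of 1 mouse counted nearly as independent in this fit. The log2 change was 0.07 ± 0.04 for Malat1, 0.01 ± 0.15 for Neat1, -0.08 ± 0.07 for Miat, -0.06 ± 0.05 for Rian, 0.10 ± 0.09 for Mirg, 0.00 ± 0.04 for Snhg11 and 0.07 ± 0.05 for Gas5 (limma adjusted p from 0.482 to 0.994). For 5330429C05Rik, whose PVN libraries are included, it was 1.19 ± 0.32, as a description. Whether the fasting change differed between nuclei was tested by an interaction, which none of the 7 RNAs passed (adjusted p from 0.859 to 0.997) and which 0% of all genes passed, with 563 genes at an unadjusted p below 0.05.

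Genes that work with these RNAs were read from fixed lists. Of 15 listed paraspeckle proteins, the partners of Neat1, 11 were measured and 1 passed in PVN, where 0.367% of all genes did: Tardbp, the RNA-binding protein TDP-43, fell by 0.55 ± 0.10 on the log2 scale (limma adjusted p = 0.0390). Its PVN level was 294 ± 66.4 CPM (SD, n = 5) in fed and 202 ± 49.2 (n = 5) in fasted mice. The call was lost without fasted PVN-100 (adjusted p = 0.151), fasted PVN-311 (0.112) or fed PVN-308 (0.155). It was also lost without the batch term (0.738). Over the 4 nuclei Tardbp fell by 0.42 ± 0.06 (adjusted p = 4.01e-06, and 0.102 without the batch term), and the other 10 paraspeckle proteins did not pass, in a fit in which 3.12% of all genes did. Of 16 listed speckle and splicing factors, the neighbours of Malat1, 7 were measured. Among them Qk, a splicing regulator bound to RNA quaking elements, fell over the 4 nuclei by 0.32 ± 0.06 (limma adjusted p = 0.000603, and 0.145 without the batch term).

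Single genes of the cell type and nucleus lists passed in the same comparisons. Of all genes, 3.12% passed over the 4 nuclei, 0.367% in PVN and 0.176% in ARC. Over the 4 nuclei, in the fit in which Qk and Tardbp fell, 1 of 3 measured astrocyte genes passed. This was Agt, which encodes angiotensinogen and rose by 0.49 ± 0.10 (limma adjusted p = 0.00319, and 0.145 without the batch term). Of the same list Gja1 stood at -0.08 and Aldh1l1 at 0.31, neither past the threshold. In the same fit 1 of 6 measured endothelial and vessel genes passed. Flt1, a receptor of vascular endothelial growth factor, fell by 0.33 ± 0.10 (limma adjusted p = 0.0947), a call that held in 5 of 16 alternatives. Not past the threshold, Slco1c1 stood at -0.44 and Kdr at -0.08, against 0.21 for Cldn5, 0.01 for Ly6c1 and 1.16 for Lyve1. In PVN, where 5330429C05Rik was higher and Tardbp lower, Lyve1 of the same list rose by 2.63 ± 0.56 on the log2 scale (limma adjusted p = 0.0637). It was past the threshold in 6 of 17 alternatives. Flt1 stood at 0.12 ± 0.15 in PVN, not past the threshold. Fasted PVN libraries ran from 1.82 to 38.6 CPM of Lyve1 and fed ones from 0 to 1.63. Npy, the hunger peptide among the ARC markers, rose in ARC by 1.35 ± 0.16 (adjusted p = 0.00114, and 0.314 without the batch term). No neuron, oligodendrocyte, microglia or ependyma gene passed for fasting. The part of these markers in the fasting values was not tested.

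In the Dlk1-Dio3 list 1 of 6 measured genes passed for fasting, Dlk1 in ARC (0.176% of all genes), which rose by 0.52 ± 0.11 (limma adjusted p = 0.0867). It had 603 ± 61.0 CPM (SD, n = 5) in fed and 870 ± 146 (n = 4) in fasted ARC libraries, without overlap, and it stayed past the threshold in 6 of 16 alternatives. The call was lost without fasted ARC-100 or ARC-311 or fed ARC-125, ARC-127, ARC-308 or ARC-313, with adjusted p from 0.109 to 0.447. Among 12 measured snoRNA hosts 1 passed over the 4 nuclei (3.12% of all genes), Snhg5, which rose by 0.43 ± 0.14 (adjusted p = 0.0960) and stayed past the threshold in 4 of 16 alternatives. It was lost without any one of the mice other than those of PVN-305 and PVN-313, with adjusted p from 0.109 to 0.349. Of 24 measured named long noncoding RNAs outside the 8, from 44 listed, 0 passed for fasting in any nucleus or over the 4, with 4 over the 4 nuclei at an unadjusted p below 0.05, as had 13.1% of all genes.

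To describe which genes varied with each RNA from library to library, Pearson correlations were taken over the 41 libraries after removing nucleus and batch means. The feeding state was not removed. These libraries share mice, and a correlation here can follow library quality or fasting state. Malat1 varied most like Ctcfl (r = 0.79), Ssh2 (0.68) and Cited2 (0.68), and Neat1 most like Mgp (0.69), Zdhhc9 (0.58) and Nr2f1 (0.58). Snhg11 varied most like Gm26871 (0.68), Nrd1 (0.64) and Gpr19 (0.62), and Gas5 most like Zfp938 (0.64), Pcp4 (0.58) and Atpif1 (0.55). For Rian the closest were Zfp638 (0.60), Gng10 (0.59) and Gm17275 (0.59), and for Mirg Gm16892 (0.58), Naxd (0.58) and Gpt2 (0.57). For Miat they were Foxred1 (0.60), Gm26566 (0.55) and ENSMUSG00000029144 (0.51), and for 5330429C05Rik Sv2c (0.65), Rufy4 (0.64) and Csf2ra (0.57). The highest values of 5330429C05Rik are those of the fasted PVN libraries by which it was picked, so its 3 correlations are not independent of that contrast and support nothing about it.

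Between the 8 RNAs themselves the correlations were lower. The highest were Snhg11 with Gas5 (r = 0.41), Malat1 with Neat1 (0.38) and Malat1 with Snhg11 (0.34). Rian and Mirg, of one domain and strand, had r = 0.16.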

How the data were processed

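The authors captured nuclei by laser in 3 batches, amplified the RNA (Ovation RNA-Seq System V2), sequenced single-end reads, mapped them to GRCm38 and left out outlier libraries. Per the submitters' processing notes CASAVA 1.7, TopHat2 2.0.11, Cufflinks 2.2.1, edgeR and limma were used. The program that counted reads per gene and its use of strand are not given in the sources used here. The deposited values are CPM, read counts scaled by the authors to the size of each library. Of 43 labelled samples 41 had a column and entered the fits, and 2 columns were left aside: they name ARC for 2 mice whose labelled PVN samples (PVN-85 and PVN-92) have no column, so the nucleus they hold is in doubt. In the low values 97.7 to 98.7% were whole multiples of 1 read (tolerance 0.1 read), which gave the depth of each library, but no count test was run.

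Values were tested as log2(CPM + 0.5) with limma 3.58.1 (R 4.3.3, moderated with a trend) on genes that reached 1 CPM in a number of libraries equal to the smaller group, or in 4 libraries for fits over all nuclei. Fold changes on this scale understate the change of low genes. Fasted and fed were compared within each nucleus with batch as covariate, and over the 4 nuclei with the mouse as a correlated block. The correlation estimated for that block, 1 value for all genes, was -0.0036. Libraries of 1 mouse thus counted nearly as independent there, although fasting was set per mouse. The p-values for fasting over the 4 nuclei therefore rest on repeated libraries of the same 12 mice. Nuclei and the interaction were compared with the mouse as a fixed block, since same-numbered libraries are from 1 animal. P-values were Benjamini-Hochberg adjusted over all genes, with 0.1 as the threshold, as in the study. Depth limits 5330429C05Rik, for which 3 reads were taken as the floor of detection.

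The 8 RNAs, named by symbol, and the gene lists were chosen with earlier results of these data known. From each list of pathway genes and noncoding RNAs the text gives the number measured and the number past the threshold, and names those past it and the 2 with the highest mean; for cell type and nucleus markers it gives sums and the genes past the threshold for fasting. Neighbours lay within 100 kb, and the 3 genes most like each RNA were those of highest Pearson r among genes with a mean of 5 CPM or more. Alternatives were pseudocounts of 0.1 and 2, no filter, median-of-ratios scaling, no batch term, a depth covariate, library weights, no block, fed libraries only, and each library or mouse left out. The fits were tested on simulated data with 200 genes changed by the stated fold. The simulated noise was drawn separately for each library with a capped SD, without mouse or batch effects. The false shares below therefore do not cover calls that arise from shared mice or from batch. The simulation also changed further genes, whose calls count as true, so recovered and false calls need not sum to all calls. The false shares are of all calls. In PVN 64% of 2-fold changes were recovered, with 10 of 138 calls false, and in ARC 93.5% of 3-fold changes, with 35 of 351 calls false (9.97%). Over the 4 nuclei 99% of 2-fold changes were recovered, with 43 of 286 calls false (15%, above the threshold of 0.1), and 25 of 196 (12.8%) were false for PVN against VMH. Meg3 and 6725 further annotated genes in a gap of the identifiers were not analysed here.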

Additional observations from a re-analysis of the deposited data

Results flagged for a closer look

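In 9 of 63 groups of 4 to 6 libraries the highest or lowest library was set apart from the others by Dixon's 95% criterion. Chance gives about 1 in 20 groups, here 3.15, but the 9 include groups of 5330429C05Rik mostly at 0, so the numbers are not compared. For Malat1 fed ARC-308 had 12019 CPM against 8515 to 9457 in the others. For Neat1 fed DMH-92 had 141 CPM against 38.9 to 55.3, and fasted PVN-100 had 29.99 CPM against 42.6 to 46.2. For Gas5 fasted DMH-311 had 542 CPM against 416 to 446, fasted PVN-101 had 508 against 612 to 637, and fed PVN-125 had 656 against 546 to 574. For 5330429C05Rik, given as a description, fed PVN-127 had 1.43 CPM against 0 to 0.238 and fasted VMH-86 had 3.98 against 0 to 0.305. Fed VMH-308 had 0.226, which is 1 read, where the others were at 0. A lone value above 0 among libraries all at 0 always meets the criterion. Fed PVN is part of the contrast by which this RNA was picked. The cause of each was not tested.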

How the results depend on the processing

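In the 16 to 18 alternatives of each fasting comparison and of the interaction, none of the 7 tested RNAs passed the threshold. In the F-test between nuclei Rian, Mirg, Gas5, Snhg11 and Malat1 stayed past it in all 17 alternatives, Neat1 in 13, and Miat in none. Of 2308 alternative values for single genes 64 changed sign, none of them from a called value. The cause of these shifts was not tested, except that fits to fed libraries or without 1 mouse hold fewer samples. Depth limits 5330429C05Rik, whose change in PVN was 4.70 and 1.75 with pseudocounts of 0.1 and 2.

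The number of all genes past the threshold for fasting moved as follows. In ARC 17 became 4 with a pseudocount of 0.1, 5 without a filter and 0 without the batch term. In DMH 1 became 0 without the batch term, 0 with the depth covariate and 2 with library weights. In PVN 35 became 3, 55 and 79, and in VMH 2 became 1, 1 and 5, under the same 3 settings. Over the 4 nuclei 316 became 18 without the batch term. Leaving out 1 library or mouse gave 3 to 23 in ARC (fewest without fasted ARC-100 or ARC-311 or fed ARC-308), 1 to 2 in DMH, 2 to 31 in PVN (fewest without fasted PVN-100), 1 to 5 in VMH, 148 to 337 over the 4 nuclei (fewest without the mouse of PVN-100) and 0 to 1 for the interaction.

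With fed libraries only, 2821 genes differed between nuclei, 995 between ARC and DMH, 969 between ARC and PVN, 1935 between ARC and VMH (3 of the named RNAs), 936 between DMH and PVN (1 named), 1352 between DMH and VMH and 1921 between PVN and VMH. Calls lost there were those of Rian ARC minus PVN (-0.15), Snhg11 ARC minus VMH (0.10), Malat1 DMH minus PVN (-0.083) and Neat1 PVN minus VMH (-0.42) and ARC minus VMH (-0.16). Gained calls were Snhg11 DMH minus PVN with median-of-ratios scaling (-0.13) and without the mouse of PVN-111 (-0.14), Miat ARC minus DMH without that mouse (0.30), and, without the mouse of PVN-305, Rian ARC minus DMH (-0.19) and Snhg11 ARC minus PVN (-0.14).

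Without the mouse as a replicate block, 307 genes passed for fasting over the 4 nuclei, 0 for the interaction and 4382 between nuclei, with 6 named RNAs among the last. Miat DMH minus VMH was then called (-0.23), Neat1 ARC minus PVN became -0.021, and no other call of the 7 changed with this pairing. Within a nucleus no paired analysis was possible because each mouse gave 1 library.

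Signs changed in the following uncalled log2 values. With the depth covariate Neat1 became 0.36 and Rian 0.15 in DMH, and Snhg11 0.00032 in VMH. With library weights Mirg became -0.0097 in DMH, Rian -0.059 in PVN and Snhg11 0.0075 in VMH. With median-of-ratios scaling Snhg11 became -0.00074 over the 4 nuclei and Miat ARC minus VMH 0.014, and without the batch term Neat1 became -0.012 over the 4 nuclei. In fed libraries only Snhg11 ARC minus DMH was -0.099, Miat DMH minus PVN 0.090 and Rian DMH minus PVN 0.033.

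With 1 library left out the fasting changes that crossed 0 were, in ARC, Miat -0.18 to 0.0030 and Mirg -0.0035 to 0.48, in DMH Mirg -0.13 to 0.12, Snhg11 -0.098 to 0.022 and Neat1 -0.32 to 0.045, in PVN Rian -0.074 to 0.044 and Snhg11 -0.12 to 0.019, and in VMH Gas5 -0.028 to 0.090, Rian -0.084 to 0.017 and Snhg11 -0.078 to 0.053. With 1 mouse left out they were, over the 4 nuclei, Mirg -0.022 to 0.17, Snhg11 -0.029 to 0.059 and Neat1 -0.11 to 0.091. Between nuclei they were Miat ARC minus VMH -0.052 to 0.086, Snhg11 ARC minus DMH -0.027 to 0.059, Neat1 ARC minus PVN -0.084 to 0.20, and for DMH minus VMH 5330429C05Rik -0.28 to 0.26, Malat1 -0.031 to 0.032 and Gas5 -0.015 to 0.068.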

Other observations

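Among 24 measured named long noncoding RNAs outside the 8, 17 differed between nuclei (limma, mouse as block, adjusted p below 0.1), where 43.3% of all genes did. Dlx6os1, made beside the forebrain homeobox gene Dlx6, had a mean of 28.8 CPM in DMH against 9.54 in ARC, 1.90 in PVN and 0.850 in VMH (adjusted p = 1.45e-11). Six3os1, made beside Six3, was highest in ARC at 33.7 CPM against 12.2 to 18.9 elsewhere (adjusted p = 7.25e-05), and so was Nespas, the imprinted antisense RNA of the Gnas locus, at 15.9 CPM against 2.73 in VMH (adjusted p = 1.95e-06). Mir124a-1hg, a host of the neuronal miR-124, was highest in VMH at 94.4 CPM against 43.8 in ARC (adjusted p = 9.58e-06), and C130071C03Rik lowest in ARC at 9.63 CPM against 30.0 to 36.2 elsewhere (adjusted p = 1.08e-06). The 2 most abundant, Tug1 and A330023F24Rik, also differed (adjusted p = 0.000225 and 0.000811), with means of 263 to 334 and 153 to 200 CPM over the nuclei. Of the 17, 9 stayed past the threshold in all 17 alternatives: A330023F24Rik, Mir124a-1hg, Zfas1, C130071C03Rik, Six3os1, Pvt1, Dlx6os1, Nespas and Pantr1. The others, called in 9 to 16 alternatives, were Tug1, Ftx, Snhg12, Lncpint, Firre, Mir9-3hg, Airn and Mir99ahg.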
